A study of Mus musculus with 14 samples.

Results

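Oligodendrocytes, the myelinating glia of the brain, arise from precursor cells that persist in the adult hippocampus, and the genes described here mark that lineage. The list holds 10 genes, chosen by name, out of 22485 gene symbols in the deposited gene table, and all 10 were found and had enough counts to be tested. Of these, 4 are pan-lineage transcription factors, expressed from precursors to myelinating cells (Olig1, Olig2, Sox10 and Sox8), 5 are precursor genes (Pdgfra, Cspg4, Vcan, Lhfpl3 and Neu4), and 1, Gpr17, marks precursors committed to differentiate. RNA came from CA1, CA3 and dentate gyrus (DG) of 1 C57BL/6 mouse, whose genotype, age and sex are not stated in the sources used here. Control tissue was homogenised directly (3 libraries of CA1, 2 of CA3, 2 of DG), and the dissociated tissue (again 3, 2 and 2) spent 75 min with pronase, a protease mixture, at 1 mg/ml in artificial cerebrospinal fluid and was broken up by vortexing and, after centrifugation, by trituration (1% FBS) before RNA isolation by the same kit. The libraries are tissue samples of 1 animal, so p-values measure only the spread between such samples.

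Olig1 and Olig2 are basic helix-loop-helix factors that bind E-boxes in DNA. Olig2 is needed to specify the lineage, and Sox10, with its relative Sox8, drives the differentiation program towards myelin. Precursors divide in response to platelet-derived growth factor through the receptor that Pdgfra encodes. They carry the proteoglycans NG2 (Cspg4) and versican (Vcan) on and around their surface, and lose these genes as they differentiate, passing through a stage in which Gpr17 is high.

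The genes lie on 8 chromosomes (GRCm38): Olig1 (ENSMUSG00000046160) chromosome 16, 91269772 to 91271933; Olig2 (ENSMUSG00000039830) chromosome 16, 91225457 to 91228677; Sox10 (ENSMUSG00000033006) chromosome 15, 79154908 to 79165240; Sox8 (ENSMUSG00000024176) chromosome 17, 25565892 to 25570686. Olig1 and Olig2 are neighbours, with Olig1 starting 41095 bases after the end of Olig2. The precursor genes are Pdgfra (ENSMUSG00000029231) chromosome 5, 75152292 to 75198215; Lhfpl3 (ENSMUSG00000106379) chromosome 5, 22746059 to 23275597; Cspg4 (ENSMUSG00000032911) chromosome 9, 56865033 to 56899870; Vcan (ENSMUSG00000021614) chromosome 13, 89655312 to 89742509; Neu4 (ENSMUSG00000034000) chromosome 1, 94020451 to 94028334. Gpr17 (ENSMUSG00000052229) chromosome 18, 31942997 to 31949636, overlaps Lims2.

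Depth was 1285654 to 6646655 estimated counts in control and 65887 to 4782767 in dissociated libraries, and 3 dissociated libraries (CA1 replicates 2 and 3, DG replicate 3) held under 500000. Each member had at least 1 count in 12 libraries, while Vcan and Gpr17 had 0 counts in CA1 dissociated replicate 2 and DG dissociated replicate 3. A count of 0 there allows up to 20.5 and 46.8 CPM (counts normalised to library size; 3 counts, counting error only), and the second of these limits is above the DG controls of both genes. In DG dissociated replicate 3 a member's value therefore rests on 0 to 18 counts.

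Because 2 of the genes with the clearest differences (Olig2 and Pdgfra) and 1 whose DG values were lower after dissociation (Sox8) recur in the results, their promoters are shown, 250 bases before to 50 after the start site, from RefSeq (GRCm38.p6), which held an entry for 7 of the 10 members. Entries for Olig1, Sox10 and Gpr17 were missing. Capitals mark matches, on either strand, to the E-box CANNTG, to the SOX-type words ACAAAG and ACAATG, and to the TATA word TATAAA.
Olig2, chr16:91225300-91225599, plus strand: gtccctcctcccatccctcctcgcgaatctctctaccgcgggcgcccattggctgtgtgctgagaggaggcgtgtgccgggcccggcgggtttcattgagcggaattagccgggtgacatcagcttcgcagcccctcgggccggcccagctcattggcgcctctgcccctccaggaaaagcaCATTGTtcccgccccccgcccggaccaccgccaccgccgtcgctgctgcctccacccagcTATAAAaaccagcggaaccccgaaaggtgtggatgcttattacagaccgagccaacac
Pdgfra, chr5:75152001-75152300, plus strand: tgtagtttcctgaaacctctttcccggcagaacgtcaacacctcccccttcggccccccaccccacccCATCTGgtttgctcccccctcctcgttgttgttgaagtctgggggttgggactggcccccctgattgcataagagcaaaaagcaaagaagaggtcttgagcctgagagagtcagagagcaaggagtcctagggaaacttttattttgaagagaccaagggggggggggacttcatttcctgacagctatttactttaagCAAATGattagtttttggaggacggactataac
Sox8, chr17:25570637-25570936, minus strand: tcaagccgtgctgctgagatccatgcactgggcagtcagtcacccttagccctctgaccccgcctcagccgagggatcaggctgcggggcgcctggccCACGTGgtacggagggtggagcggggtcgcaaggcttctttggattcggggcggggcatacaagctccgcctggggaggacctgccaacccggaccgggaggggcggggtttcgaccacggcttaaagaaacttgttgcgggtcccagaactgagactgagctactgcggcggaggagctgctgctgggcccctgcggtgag
The Olig2 window held 1 ACAATG word, found in 12.6% of 32851 promoters of this length, and 1 TATAAA word, found in 13.6%. It had no E-box, whereas the Pdgfra window had 2 and the Sox8 window 1, and 72.3% of promoters hold at least 1. None of the 7 windows held ACAAAG, found in 18.7% of promoters. These are matches of letters and not sites shown to be bound.

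Per unit of length, Olig1 was the most abundant member. Its TPM, a level corrected for transcript length, was 89.3 ± 42.7 in control libraries (SD, n = 7), and its lowest control value, 53.4, lay above the highest control value of the other 9 members, 36.1 for Sox10. The next 4 members, Sox10 (18.8 ± 10.9 TPM), Sox8 (15.0 ± 7.84), Pdgfra (15.0 ± 8.76) and Olig2 (13.5 ± 5.10), differed from their neighbours in this order by less than the SD of either. Lower still were Lhfpl3 (8.60 ± 4.75 TPM), Gpr17 (7.74 ± 4.82), Vcan (6.0 ± 3.03), Neu4 (5.60 ± 4.37) and Cspg4 (5.38 ± 1.89), again apart by less than the SD of either neighbour, while Olig2 and Lhfpl3 were as far apart as their SDs. In dissociated libraries Olig1 again came first (187.7 ± 79.1 TPM) and Cspg4 last (8.33 ± 4.66), and Olig2 followed Sox10 with 41.7 ± 27.4 TPM.

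**Figure D1:**
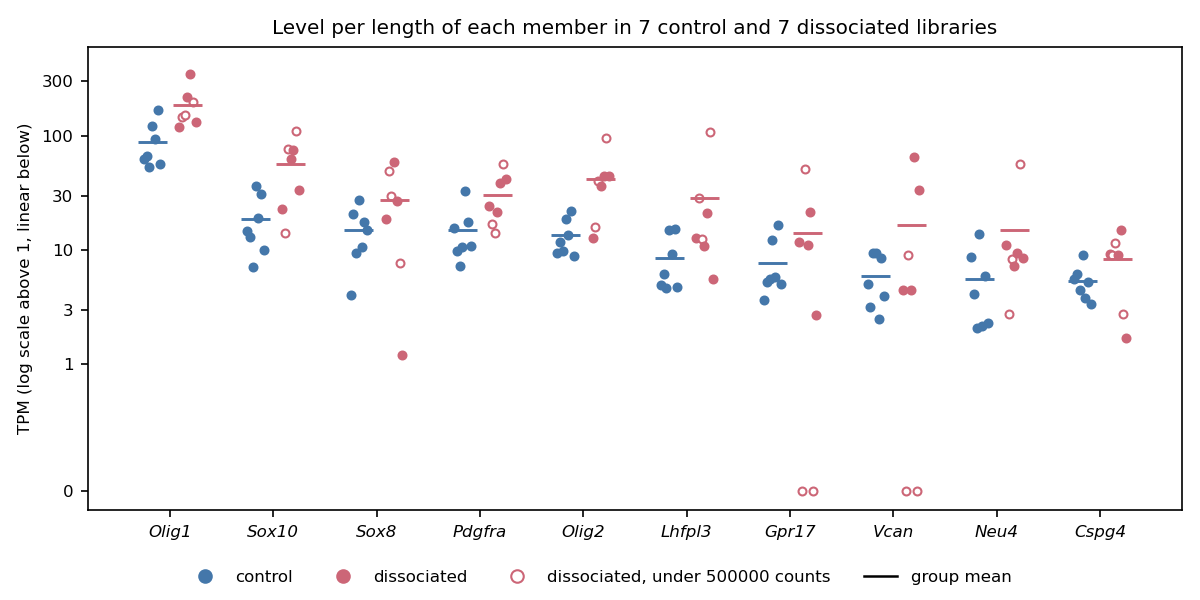
TPM of each member (vertical axis, log scale above 1 and linear below) in 7 control (blue) and 7 dissociated (red) libraries, with lines at the group means and open symbols for libraries under 500000 counts. Olig1 stands above the other members in control libraries, and Gpr17 and Vcan are listed at 0 in 2 shallow libraries.

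The main comparison asked how RNA levels in dissociated tissue differed from those in tissue homogenised directly. Of the 4 pan-lineage factors, 3 were higher after dissociation (Olig1, Olig2 and Sox10), by 1.42 to 1.90 on the log2 scale, and of the 5 precursor genes 1 was, Pdgfra. These 4 of 10 were called by edgeR's quasi-likelihood test with region in the model (Benjamini-Hochberg adjusted p under 0.05 over 13063 genes), where 0.727% of genes were called higher and 0.0459% lower. The members' 10 log2 fold changes were positive, with a median of 1.44, beside a median of −0.11 and 41.9% positive among the genes tested. At an unadjusted p under 0.05, 8 members were higher and 0 lower (edgeR), as were 6.11% and 6.31% of genes, and 7 members had a log2 fold change of at least 1, as did 7.32% of genes. In bulk tissue, more cells of a type and more RNA per cell cannot be told apart.

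Olig1 was higher after dissociation, although its groups overlapped in DG. The CA1 controls held 58.1, 61.4 and 47.0 CPM and the dissociated CA1 libraries 161.0, 164.1 and 165.0 CPM, those of CA3 105.4 and 99.2 against 268.5 and 440.7 CPM, and those of DG 171.5 and 55.1 against 281.0 and 128.9 CPM. In CA1 and CA3 each dissociated library lay above each control. The 3 dissociated CA1 values lay close together, but they rest on 705, 24 and 50 counts, from libraries of 135065 to 4782767 counts. In DG control replicate 2 exceeded dissociated replicate 4. Its means were 85.4 ± 44.2 CPM without and 229.9 ± 109.5 CPM with dissociation (SD over 7 libraries each), a log2 fold change of 1.42 ± 0.27 (SE) with an edgeR adjusted p of 0.0127.

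Olig2, its neighbour on chromosome 16, was higher in each dissociated library than in each control of the same region. Its level was 9.84, 12.4 and 9.85 CPM in control CA1 and 19.9, 20.5 and 49.5 CPM in dissociated CA1, 18.5 and 16.3 CPM against 51.8 and 64.1 CPM in CA3, and 25.7 and 9.93 CPM against 156.1 and 49.6 CPM in DG. The difference was smallest in CA1, where dissociated replicate 2 rests on 3 counts, and largest in DG, where dissociated replicate 3 held 10 counts. The log2 fold change was 1.76 ± 0.36 (SE), with an edgeR adjusted p of 0.0173.

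Sox10, which activates myelin genes, had the largest fold change of the list. For Sox10, control CA1 gave 17.4, 15.2 and 8.06 CPM, CA3 39.8 and 25.8 and DG 40.3 and 12.6, and after dissociation CA1 gave 39.5, 20.5 and 105.6 CPM, CA3 99.5 and 121.8 and DG 202.9 and 41.3. The groups did not overlap in any region, although margins were narrow in CA1, where dissociated replicate 2 rests on 3 counts, and in DG, where replicate 4 lay just above the higher control. The log2 fold change was 1.90 ± 0.37 (SE), with an edgeR adjusted p of 0.0162.

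Sox8, the second SOX factor, was not called. Without dissociation Sox8 stood at 5.37, 27.2 and 8.50 CPM in CA1, 34.0 and 15.8 in CA3 and 25.7 and 21.0 in DG, and with dissociation at 22.1, 75.2 and 46.2 CPM in CA1, 67.8 and 48.3 in CA3 and 15.6 and 1.65 in DG. The groups overlapped in CA1, both CA3 dissociated libraries were above the controls, and both DG dissociated libraries, each with 1 count, were below them. Over all regions the log2 fold change was 0.85 ± 0.52 (SE) (edgeR adjusted p = 0.534).

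Among the precursor genes, Pdgfra, the receptor on which precursor division depends, was the 1 called. The CA1 controls held 41.6, 29.2 and 21.0 CPM and the dissociated CA1 libraries 84.9, 61.5 and 49.5 CPM, those of CA3 27.7 and 44.2 against 86.8 and 158.0 CPM, and those of DG 57.9 and 26.7 against 218.5 and 77.7 CPM. Each dissociated library lay above each control of its region, with 9 counts in CA1 dissociated replicate 2 and 14 in DG dissociated replicate 3. The log2 fold change was 1.46 ± 0.29 (SE), with an edgeR adjusted p of 0.0171.

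Cspg4, the gene of the NG2 proteoglycan, had higher values in the dissociated libraries of CA1 and CA3 and not in those of DG. Its level was 20.6, 22.8 and 15.7 CPM in control CA1 and 49.8, 41.0 and 49.5 CPM in dissociated CA1, 31.1 and 15.8 CPM against 44.8 and 75.3 CPM in CA3, and 21.3 and 13.1 CPM against 15.6 and 6.61 CPM in DG. The groups were apart in CA1 and CA3 and overlapped in DG, where the dissociated values rest on 1 and 4 counts. Its log2 fold change was 0.92 ± 0.37 (SE), not called (edgeR adjusted p = 0.307).

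Lhfpl3, a tetraspan membrane protein gene used as a precursor marker, and Neu4, a sialidase gene, had fold changes as large as that of Pdgfra with wider errors. For Lhfpl3, control CA1 gave 6.71, 7.40 and 5.82 CPM, CA3 18.5 and 12.9 and DG 21.3 and 6.40, and after dissociation CA1 gave 22.8, 47.9 and 16.5 CPM, CA3 17.7 and 35.3 and DG 187.3 and 6.61. The groups were apart in CA1 and overlapped in CA3 and DG. The highest Lhfpl3 value, in DG dissociated replicate 3, came from 12 counts, and without that library the log2 fold change fell from 1.67 ± 0.54 (SE, edgeR adjusted p = 0.181) to 1.04. Without DG dissociated replicate 4 it was 1.90 and called (edgeR adjusted p = 0.0288). Without dissociation Neu4 stood at 9.39, 5.77 and 4.03 CPM in CA1, 11.7 and 5.0 in CA3 and 8.06 and 3.36 in DG, and with dissociation at 15.5, 6.84 and 19.8 CPM in CA1, 9.46 and 21.4 in CA3 and 78.0 and 18.2 in DG. The Neu4 groups overlapped in CA1 and CA3 and were apart in DG, where the dissociated values rest on 5 and 11 counts. Its log2 fold change was 1.49 ± 0.52 (SE) (edgeR adjusted p = 0.23).

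Vcan, whose versican proteoglycan lies in the matrix around precursors, had the smallest fold change of the list. The CA1 controls held 22.8, 10.5 and 13.9 CPM and the dissociated CA1 libraries 23.5, 0 and 9.90 CPM, those of CA3 25.7 and 16.3 against 16.0 and 44.6 CPM, and those of DG 16.9 and 13.3 against 0 and 46.3 CPM. The groups overlapped in the 3 regions, and the log2 fold change was 0.46 ± 0.44 (SE) (edgeR adjusted p = 0.712). It was 0.12 without DG dissociated replicate 4 and 0.85 without the 3 libraries under 500000 counts. Gpr17, the gene of a G protein-coupled receptor of committed precursors, was the most scattered. Its level was 8.50, 12.3 and 12.5 CPM in control CA1 and 40.4, 0 and 141.9 CPM in dissociated CA1, 26.7 and 15.4 CPM against 35.0 and 69.7 CPM in CA3, and 43.2 and 12.5 CPM against 0 and 6.61 CPM in DG. In CA1 the dissociated libraries held both the highest and the lowest values, from 43 and 0 counts, while in DG both lay below the controls. The count of 0 in CA1 allows up to 20.5 CPM, which is above the CA1 controls. Its log2 fold change was 1.30 ± 0.60 (SE) (edgeR adjusted p = 0.383), and without CA1 dissociated replicate 3 it fell to 0.71.

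**Figure D2:**
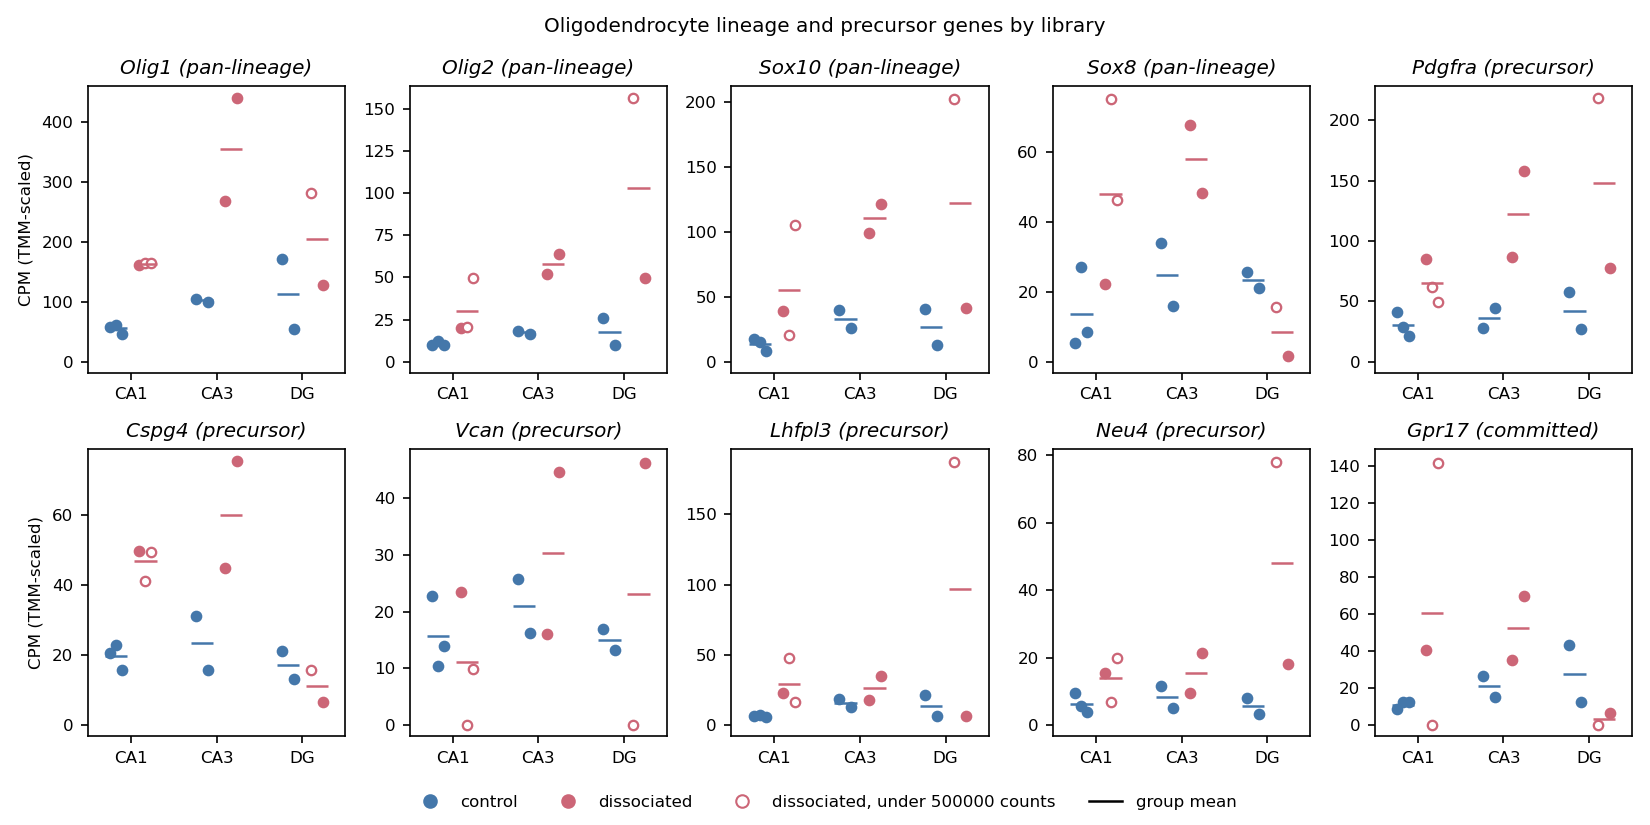
CPM scaled by TMM (vertical axis, from 0) of each member in the 14 libraries by region, for control (blue) and dissociated (red) tissue, with group means as lines and open symbols for dissociated libraries under 500000 counts. Olig2, Sox10 and Pdgfra are higher in each dissociated library than in the controls of the same region, while Sox8 and Gpr17 are lower in DG.

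Counted over members, the dissociated libraries were all above the controls for 6 of 10 in CA1, 7 in CA3 and 4 in DG, where the same held for 7.16%, 15.7% and 8.25% of the genes tested. Olig2, Sox10 and Pdgfra were among them in each of the 3 regions, and the share of all genes for which that held was not computed. In DG the dissociated libraries were all below the controls for 2 members, Sox8 and Gpr17. The share of all genes that were lower in this way was not computed either. Across regions no member separated the 7 dissociated from the 7 control libraries, which 0.245% of genes did.

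The calls changed when libraries were left out. Without the 3 libraries under 500000 counts, edgeR called 0 of the 10 members, where 0.102% of genes were called higher. At an unadjusted p under 0.05 (edgeR) there were 7 members and 1414 of 13762 genes. The log2 fold changes were 1.35 for Olig1, 1.44 for Olig2, 1.46 for Sox10 and 1.47 for Pdgfra (edgeR adjusted p from 0.0751 to 0.109). Of the members 10 of 10 were positive, as were 6245 of the 13762 genes. With 1 library left out in turn, Olig1 and Sox10 were called in 14 of 14 fits, Olig2 in 13 and Pdgfra in 11, while 0.273% to 1.46% of genes were called higher in the same fits. Without CA3 dissociated replicate 4 the calls were Olig1 and Sox10 (edgeR adjusted p = 0.0599 for Olig2 and 0.0719 for Pdgfra), and Pdgfra also lost its call without CA1 control replicate 3 (0.0528) or CA3 control replicate 1 (0.0538). On log2(TPM + 1), limma called 0 members (0.0536% of genes were called higher), with adjusted p of 0.0604 for Olig1, 0.0824 for Olig2, 0.0892 for Sox10 and 0.14 for Pdgfra.

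**Figure D3:**
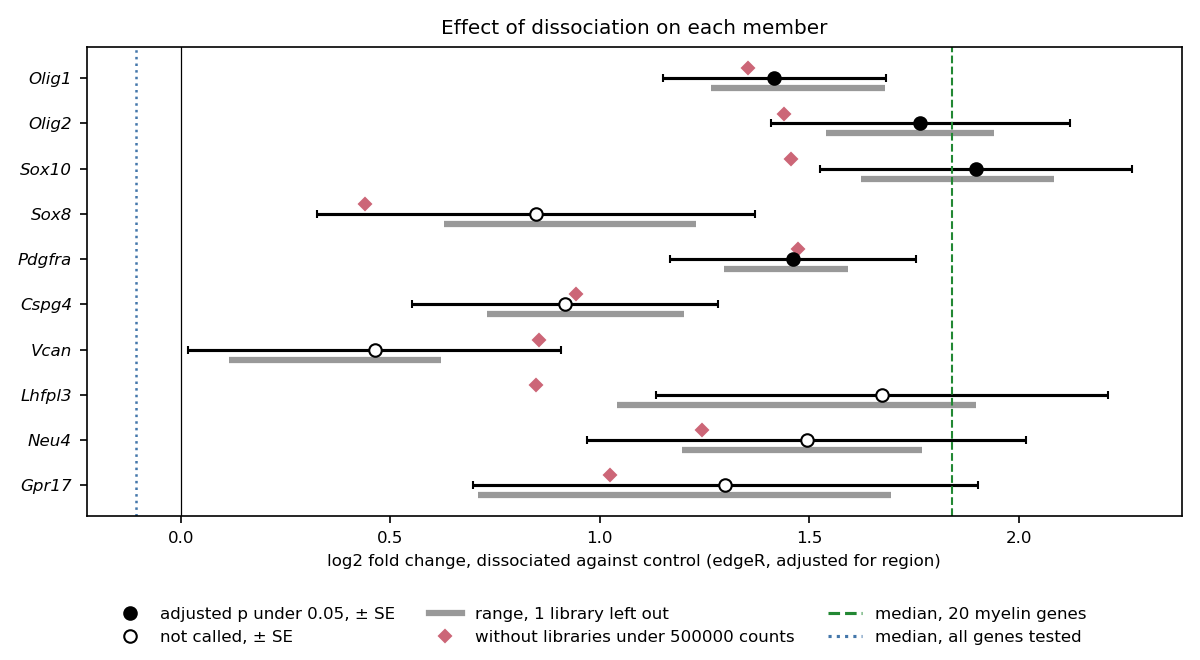
Log2 fold change of each member in dissociated against control tissue (horizontal axis; points with SE, filled where the edgeR adjusted p was under 0.05), the range with 1 library left out (grey bars) and the value without libraries under 500000 counts (diamonds). The 10 members lie between 0.46 and 1.90, to the right of the median of the genes tested at −0.11, and 9 of them lie left of the myelin gene median of 1.84.

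Within regions, the model with 1 mean per region and treatment called no member in CA1, CA3 or DG (edgeR), where 0.191%, 0% and 0.0383% of genes were called higher and 0%, 0% and 0.122% lower. At an unadjusted p under 0.05, 8 members were higher in CA1, 5 in CA3 and 5 in DG, where Sox8 was lower (edgeR). So were 6.02%, 2.55% and 3.09% of genes higher in the 3 regions, and 5.18%, 1.45% and 11% lower. When CA1 was fitted on its own 6 libraries, Olig1 was called (log2 fold change 1.58, edgeR adjusted p = 0.033), as were 0.399% of genes in that direction. The members' median log2 fold change was 1.48 in CA1, 1.32 in CA3 and 1.39 in DG, beside −0.059, −0.050 and −0.27 over the genes tested. Within DG 5062 of the 13063 genes tested were positive. In DG 3 members were negative, namely Sox8 (−2.79 ± 1.28 SE), Gpr17 (−2.21 ± 1.26) and Cspg4 (−1.08 ± 0.81), and they are also the 3 with an unadjusted interaction p under 0.05 (0.018, 0.013 and 0.0414). Over all genes the interaction of treatment and region was called for 0 of 13063 genes (edgeR; 1112, or 8.51%, at an unadjusted p under 0.05), so a dependence on region was not detected, with adjusted p of 0.504, 0.477 and 0.581 for these genes.

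The next comparison was between subregions at equal treatment. Each of the 10 members had a lower estimate in CA1 than in CA3, by 0.20 (Neu4) to 1.12 (Sox10) on the log2 scale, and 0 were called (edgeR; 2 at an unadjusted p under 0.05, Olig1 and Sox10; DESeq2 0), where 0.107% of genes were called lower and 0.00766% higher. Among the genes tested 43.8% were positive in this contrast, and 3.57% were lower and 1.8% higher at an unadjusted p under 0.05. For Olig1 the difference was −1.01 ± 0.30 (SE, edgeR adjusted p = 0.375), and the CA1 controls at 58.1, 61.4 and 47.0 CPM lay below the CA3 controls at 105.4 and 99.2. For Sox10 it was −1.12 ± 0.42 (edgeR adjusted p = 0.648), with controls that also did not overlap. The share of all genes whose CA1 controls lay below the CA3 controls was not computed. The pan-lineage factors had a median of −0.91 and the precursor genes one of −0.53, both nearer 0 than the −1.81 of 20 myelin genes, of which 3 were called lower.

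Against DG, CA1 was lower for 7 and higher for 3 members, and CA3 was lower for 4 and higher for 6. No member was called in either contrast (edgeR; 2 and 1 at an unadjusted p under 0.05; DESeq2 0 in both), where 1.98% and 0.888% of genes were called higher and 2.07% and 0.88% lower. Positive values made up 47.3% and 52.9% of genes, and at an unadjusted p under 0.05 the shares were 7.08% and 6.32% higher and 8.61% and 5.71% lower. The largest differences were those of Lhfpl3 (−1.14 ± 0.67 SE) and Olig2 (−1.06 ± 0.43) in CA1 against DG and Cspg4 (1.14 ± 0.49) in CA3 against DG. The 2 DG controls differed from each other, Olig1 being at 171.5 and 55.1 CPM in replicates 2 and 3, Pdgfra at 57.9 and 26.7 and Gpr17 at 43.2 and 12.5. Without DG control replicate 2, Olig1 in CA1 against DG went from −0.68 to 0.013.

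**Figure D4:**
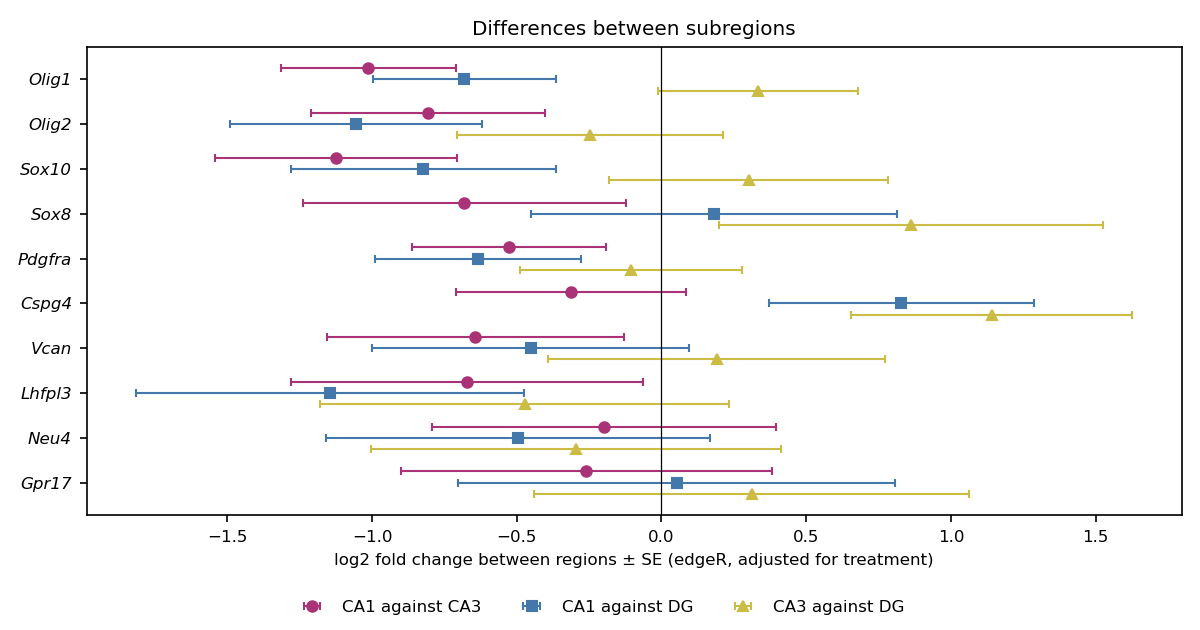
Log2 fold change between subregions (horizontal axis, points with SE) of each member, from the edgeR model with treatment as a term. The CA1 against CA3 points of the 10 members lie left of 0, while the contrasts with DG fall on both sides, and no point passed the adjusted threshold.

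Precursor and pan-lineage genes were then set against each other within each library, as a description without a test because the genes were chosen with results known. The log2 ratio of summed CPM of the 5 precursor to the 4 pan-lineage genes averaged −0.57 ± 0.40 without and −0.84 ± 0.46 with dissociation (SD over 7 libraries each). It was 0.15, −0.62 and −0.28 in the CA1 controls and −0.30, −0.83 and −1.33 in the dissociated CA1 libraries, −0.79 and −0.74 against −1.48 and −1.01 in CA3, and −1.07 and −0.65 against −0.39 and −0.51 in DG. The ratio was lower after dissociation in CA3 and higher in DG with no overlap between the 2 libraries of each group. From TPM the DG groups were apart too, but those of CA3 overlapped (controls −1.82 and −1.44, dissociated −2.81 and −1.73). The −1.73, of CA3 dissociated replicate 4, depends on Vcan at 65.0 TPM. Of these, 55.0 TPM came from the 294-base transcript Vcan-009, with 4.23 estimated counts. The ratio without that transcript was not computed. On CPM the mean of the 3 within-region differences, −0.22, was smaller than the SD between control libraries. As a share of the counts of both groups, precursor genes made up from 26.4% (95% exact interval 24.2 to 28.6%, CA3 dissociated replicate 1) to 52.7% (47.8 to 57.5%, CA1 control replicate 1), intervals that cover counting error only. In DG the share was 43.2% (31.8 to 55.3%) and 41.2% (34.8 to 47.9%) after dissociation. The DG controls held 32.3% (28.3 to 36.4%) and 38.9% (35.9 to 42.0%). The intervals of both DG controls overlapped those of both dissociated DG libraries.

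Set against the 20 myelin genes, the precursor genes stood highest in CA1 controls. Their log2 ratio was −3.15, −3.33 and −3.99 there, −5.14 and −5.38 in CA3 controls and −5.16 and −5.13 in DG controls. The pan-lineage ratio was ordered alike, with −3.30, −2.71 and −3.71 in CA1, −4.36 and −4.64 in CA3 and −4.09 and −4.48 in DG controls. Summed CPM of the myelin genes was 759.3 to 962.4 in the CA1 controls and 2196 to 4486 in the others, a gap between the groups. Summed CPM of the precursor genes was 60.4 to 101.1 in the CA1 controls and 62.9 to 125.3 in the others, with overlap. After dissociation the precursor to myelin ratio in CA1 spread to −3.21, −4.69 and −5.63.

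**Figure D5:**
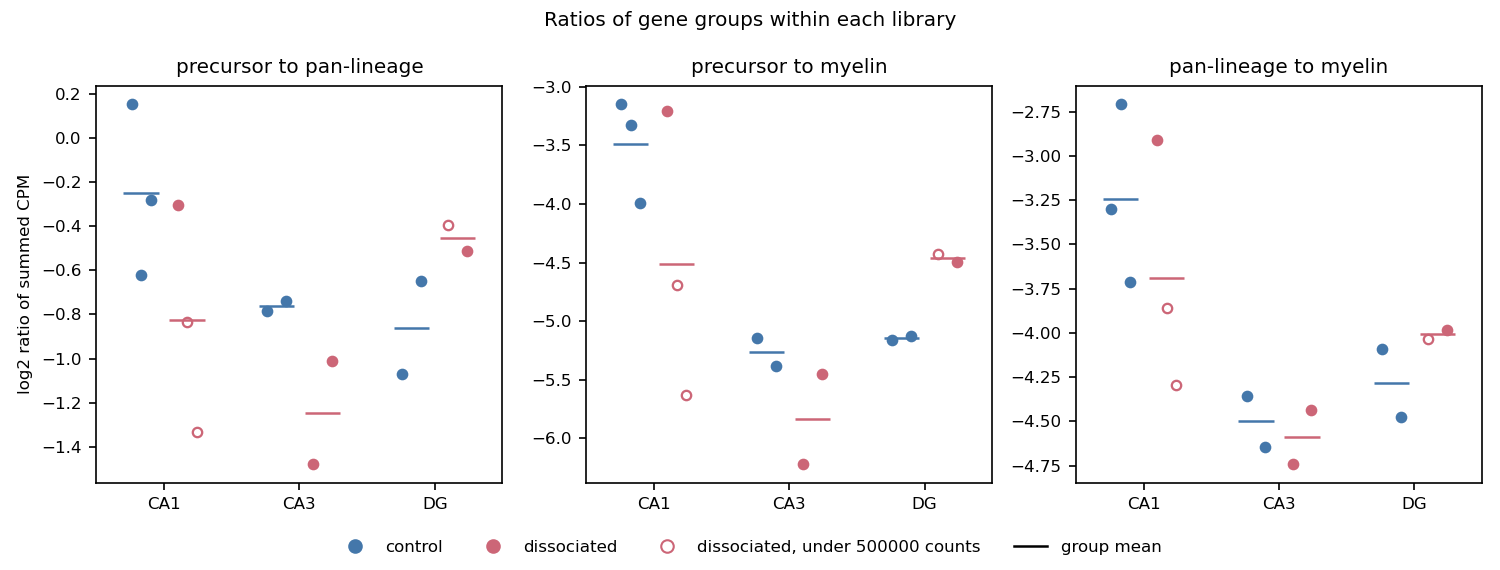
Log2 ratio of summed CPM (vertical axis) of precursor to pan-lineage, precursor to myelin and pan-lineage to myelin genes in each library by region, for control (blue) and dissociated (red) tissue, with group means as lines and open symbols for libraries under 500000 counts. CA1 controls have the highest precursor to myelin ratios among the controls, and the dissociated CA1 libraries spread widely.

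The ratio of Olig1 to Olig2, the 2 neighbours, stayed in a narrow range in control tissue. Its log2 value lay between 2.25 and 2.74 in the 7 controls and between 0.85 and 3.02 in the dissociated libraries. The lowest were the DG dissociated libraries, 0.85 and 1.38, of which replicate 3 held 18 counts of Olig1 and 10 of Olig2, and replicate 4 held 78 and 30.

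Other genes of the lineage were read against the 0.727% of all genes called higher. Of 14 further precursor genes, 0 were called higher or lower (edgeR; 6 at an unadjusted p under 0.05), 12 were positive and the median log2 fold change was 0.74, with Ncan, Tnr and Ptprz1, extracellular matrix and receptor genes that astrocytes or neurons also express, the most abundant (0.26 ± 0.26, 0.24 ± 0.24 and 0.40 ± 0.24 SE). Of 9 tested genes of committed and newly formed oligodendrocytes 1 was called higher, Bcas1 (1.62 ± 0.29, edgeR adjusted p = 0.01), a marker of cells starting to myelinate, and it was also lower in CA1 than CA3 (−2.17 ± 0.34, edgeR adjusted p = 0.00396). Casr, also on that list, had 0 counts in the 14 libraries. Of 18 other regulators 2 were called higher, Myrf (1.84 ± 0.35, edgeR adjusted p = 0.0127), the factor that switches on myelin genes, and Qk (1.03 ± 0.21, edgeR adjusted p = 0.0188), an RNA-binding protein gene needed for myelination, and 16 were positive (median 0.71). Without the 3 libraries under 500000 counts, 0 of the 18 regulators were called by edgeR. At an unadjusted p under 0.05 (edgeR) there were 6 of them and 1414 of 13762 genes.

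Of 10 genes of growth signals to precursors, 0 were called (edgeR; 4 at an unadjusted p under 0.05). Pdgfa, the ligand of the receptor that Pdgfra encodes, differed by 0.24 ± 0.25 (SE), with 40.9 ± 9.21 CPM without and 44.4 ± 15.9 CPM with dissociation (SD over 7 libraries each). Of the 20 myelin genes 12 were called higher and 20 were positive (median 1.84). Without the 3 libraries under 500000 counts edgeR called 1 of them, and the median was 1.09. Their summed CPM was 759.3 to 4486 in control and 1820 to 14612 in dissociated libraries.

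Of the 15 microglia markers 9 were called higher and 6 were not (edgeR; median 1.74, 15 positive). They summed to 339.8 to 584.1 CPM in controls and 701.0 to 2694 CPM after dissociation. Without the 3 libraries under 500000 counts 5 of them were called (edgeR) and the median was 1.49. Astrocyte markers were positive for 12 of 12 with 0 called (edgeR; 5 at an unadjusted p under 0.05; median 0.53), at 2547 to 4059 and 2214 to 8120 summed CPM. Excitatory neuron markers (9 of 10 negative, median −0.38, 0 called by edgeR, 2 at an unadjusted p under 0.05) summed to 6642 to 11868 CPM in controls and 4167 to 11968 CPM after dissociation. Each of these lists had counts for all of its members, and their part in the members' differences was not tested.

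Pericytes also express Cspg4, and fibroblasts of vessels and meninges express Pdgfra. Of 10 pericyte and smooth muscle markers, 7 could be tested and 0 were called (edgeR; 2 at an unadjusted p under 0.05; 3 positive, median −0.06), with summed CPM of 66.7 to 145.8 in controls and 55.5 to 2513 after dissociation. The upper value is DG dissociated replicate 3, where the smooth muscle gene Acta2 stood at 2497 CPM against at most 4.89 CPM in controls. Of 8 fibroblast markers 2 could be tested, Igfbp2 and Col1a1, with 0 called (edgeR; 0 at an unadjusted p under 0.05) and summed CPM of 4.92 to 23.8 and 3.30 to 46.8. Igfbp2 averaged 8.91 ± 5.98 CPM in controls and 13.5 ± 8.52 CPM after dissociation (SD over 7 libraries each), and Col1a1 reached 31.2 CPM in 1 dissociated library. The collagen and matrix genes Col1a2, Col3a1, Dcn and Lum averaged at most 1.15 CPM (Col1a2 in controls). Of 5 Schwann cell markers 4 could be tested (2 positive, 0 called by edgeR, 2 at an unadjusted p under 0.05, median 0.46), at 28.8 to 93.5 and 61.5 to 138.5 summed CPM.

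Genes with the most similar pattern over the 14 libraries were found by the mean absolute difference in centred log2 CPM among 11513 genes, whose median was 1.15 from Olig1 and 1.13 from Pdgfra. The nearest to Olig1 were Csrp1 (0.28), Zcchc24 (0.31), Cd63 (0.33), Cd82 (0.34) and Cpne2 (0.36). The nearest to Pdgfra were Cpne2 (0.32), mt-Nd6 (0.32), Glul (0.34), Tln1 (0.34) and Qk (0.34). Among the members themselves Olig1 and Pdgfra were closest (0.37), then Olig2 and Sox10 (0.39), and Lhfpl3 and Gpr17 farthest apart (1.87). These are descriptions over 14 libraries that share their depth and treatment.

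Transcripts were estimated for the 5 members with more than 1 in the files, and isoform values are given as levels without a test. Pdgfra-001, the full-length form with 3270 coding bases, held 48.2% of the gene's TPM summed over control and 79.1% over dissociated libraries. Its share ranged from 1.56% to 100% between single controls. Pdgfra-006, which has the same coding length and other ends, held 21.8% and 0.217%. Pdgfra-009, of 442 bases, held 17.3% of control TPM from 6.94 estimated counts, mostly in CA3 control replicate 4 (15.5 TPM). It was listed at 0 in the dissociated libraries.

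For Vcan, whose splice forms differ in the stretches that carry sugar chains, the form with both stretches (Vcan-001, 10065 coding bases) was present in 7 of 7 controls at 1.94 ± 0.912 TPM (SD, n = 7). The form with 4848 coding bases (Vcan-006) was present in 6 at 1.76 ± 0.887 TPM, and that with 7185 (Vcan-004) was listed at 0 in the 7 controls. Sox8-001, the full form, held 96.5% of Sox8 TPM in control libraries. Lhfpl3 was divided between Lhfpl3-001 (61.3%) and the shorter coding form Lhfpl3-002 (38.7%) in controls, and between 22.9% and 77.1% in dissociated libraries. Without DG dissociated replicate 3, with its 12 counts of Lhfpl3, the dissociated shares were 49.99% and 50.01%.

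Read sharing between genes was small for most members. Of the 31-base words in the members' transcripts (GENCODE M21), at most 2.59% also occurred in another gene of the files, that maximum being Gpr17 with Lims2, and Sox10 shared 0.932% with its relative Sox9. Transcripts not in the files, which hold coding transcripts, overlapped 16.7% of the words of Lhfpl3 (A930003O13Rik), 9.7% of Sox8 (mainly 2810468N07Rik), 5.96% of Olig1 (Gm15966) and 5.82% of Pdgfra (mainly Gm42802). As the sequencing strand is not given in the sources used here, reads of these overlapping RNAs cannot be told apart from those of the members.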

How the data were processed

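The authors deposited kallisto estimated counts and TPM per transcript, per the file headers, and a gene table of estimated counts, each within 0.5 of the sum of that symbol's transcripts. In the deposited sample annotation the 14 libraries share 1 mouse, 1 sequencing job and 1 date. The submitters' processing notes name FastQC, cutadapt, kallisto and DESeq2. Tool versions, build, annotation release and strand: not given in the sources used here. Coordinates are those of GENCODE M21.

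Whole gene counts were tested in edgeR 4.0.16 (R 4.3.3). The function filterByExpr on the 6 groups (minimum count 10, minimum total 15) kept 13063 genes, TMM scaled the libraries, and the quasi-likelihood F test used region and treatment over 14 libraries, or 1 mean per group for effects within regions. A gene was called at a Benjamini-Hochberg adjusted p below 0.05. SEs came from the F statistic. CPM use TMM-scaled library sizes. The script was tested on simulated data. Alternatives were RLE and upper-quartile scaling, no filter, DESeq2 1.42.0, limma 3.58.1 (trend) on log2(TPM + 1), leaving out libraries, and a replicate block.

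The members, lists and tests were chosen with earlier results of these data known. All members were named. Other genes were named if called (at most 6 a list) or among the 3 most abundant of a list, and, by likeness, the 5 nearest to Olig1 and to Pdgfra with at least 5 CPM. Pdgfa, Casr, Col3a1, Dcn and Lum were chosen after their values were seen. Endothelial markers (10 tested, 9 positive, median 0.45) and inhibitory neuron markers (10 tested, 2 positive, median −0.37) were also listed, with 0 called by edgeR and 0 at an unadjusted p under 0.05. A result for 1 listed gene is not reported here.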

Additional observations from a re-analysis of the deposited data

How the results depend on the processing

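The number of members called higher after dissociation was 4 with RLE and upper-quartile scaling and with 1 mean per group (where 1.18%, 0.796% and 0.658% of all genes were called higher), 5 without the filter (1.58%), 6 with DESeq2 (3.21%), and 2 to 5 with 1 library left out (0.273% to 1.46%). The lowest came without CA3 dissociated replicate 4 and the highest without replicate 4 of dissociated DG, the fits with the lowest and highest of these shares. It was 0 with limma-trend on log2(TPM + 1) (0.0536%) and 0 without the libraries under 500000 counts (0.102%). The second setting has fewer samples, and its estimates moved as well, from 1.90 to 1.46 for Sox10 and from 1.46 to 1.47 for Pdgfra. For neither setting was the cause tested. The members' 140 fold changes with 1 library left out were positive. Within CA1 the count was 1 with the libraries of that region alone (Olig1). Over all genes tested the median log2 fold change came to −0.11 (TMM), −0.011 (RLE) and −0.066 (upper quartile). The precursor to pan-lineage difference was −0.033 from TPM, −0.063 without the libraries under 500000 counts and −0.30 to −0.13 with 1 library left out. The value from TPM includes 55.0 TPM of Vcan-009 in CA3 dissociated replicate 4, from 4.23 estimated counts.

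The numbers in the labels are shared by 6 pairs of a control and a dissociated library of the same region. Deviations of same-numbered libraries correlated at −0.16 to 0.07 over 13063 genes. In CA3 and DG, with 2 libraries per group, correlations of same-numbered and other pairs are equal apart from sign. Such values cannot decide whether the numbers pair samples, and the labels do not say so. The replicate block is therefore given as a setting only. With the replicate block 6 members were called (1.65% of all genes higher), Sox8 (1.51) and Lhfpl3 (1.94) in addition, and Vcan turned to −0.17. DG control replicate 2 and DG dissociated replicate 4 have no same-numbered partner, so they add nothing to that treatment estimate. Leaving out DG dissociated replicate 4 alone, with no block, gave 1.23 for Sox8, 1.90 for Lhfpl3 and 0.12 for Vcan.

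Signs also turned for Gpr17 under limma-trend (−0.20) and for Sox8 with 1 mean per group (−0.0033). In the region contrasts, which called no member, 5 members in CA1 against DG, 7 in CA3 against DG and 1 in CA1 against CA3 changed sign under some alternative. Without the libraries under 500000 counts CA1 against DG was −0.080 for Sox8, 0.18 for Neu4 and −0.40 for Gpr17, and CA3 against DG was 0.22 for Olig2, 0.18 for Pdgfra, 0.61 for Lhfpl3 and 0.32 for Neu4. With 1 library left out, CA1 against DG ranged from −0.94 to 0.013 for Olig1, −0.39 to 0.64 for Sox8, −0.69 to 0.17 for Vcan, −0.88 to 0.085 for Neu4 and −0.54 to 1.23 for Gpr17. CA3 against DG ranged from −0.55 to 0.13 for Olig2, −0.025 to 0.82 for Sox10, −0.31 to 0.19 for Pdgfra, −0.075 to 0.81 for Vcan, −0.91 to 0.49 for Lhfpl3, −0.72 to 0.26 for Neu4 and −0.25 to 1.49 for Gpr17, and CA1 against CA3 from −0.42 to 0.28 for Neu4. Depth limits the shallow libraries, where members rest on 0 to 50 counts.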
